A study of Mus musculus with 29 samples.

Results

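PU.1 binding sites that adult microglia shared with IRF8, and that had no PU.1 peak in IRF8 knockout microglia, were described here by their genes, position, sequence, stage of IRF8 binding and histone marks. A wild-type (WT) PU.1 region was a merged region with a peak in both WT PU.1 libraries, and it counted as IRF8-bound where it shared at least 1 bp with a region called in 2 or more of the 3 adult IRF8 libraries. Of 5358 WT PU.1 regions, 4682 (87.4%) were IRF8-bound. Among these, 1088 had no peak in either knockout (KO) PU.1 library and are called lost, and 3594 had a peak in at least 1 KO library and are called kept. With 1 library left out, the number of lost regions was 3006 without WT PU.1 replicate 2, 1956 without WT PU.1 replicate 1 and 1646 without KO PU.1 replicate 1. Without a WT library, a peak in the other WT list was enough for a region. The set of IRF8-bound regions then changed too, so 3006 and 1956 are not counts out of the 4682. The members were thus chosen by the called PU.1 peaks of WT and KO microglia and the called IRF8 peaks of adult microglia. The lost regions made up 23.2% of the IRF8-bound regions, against 25.1% over all WT PU.1 regions. These shares come from the lists that define the regions, so they are descriptions. A lost region is a region without a called peak, which is not the same as a region without PU.1.

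PU.1 is an ETS-family transcription factor that is required for the macrophage lineage, microglia (the resident macrophages of the brain) included. IRF8 is an interferon regulatory factor of myeloid cells that binds many of its sites together with a partner, and with PU.1 it can bind a composite element in which an ETS half-site lies beside an IRF half-site. H3K4me1 marks enhancers in general, and H3K27ac marks active enhancers and promoters.

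Binding was mapped by CUT&RUN, in which an antibody directs a nuclease fused to protein A to a chromatin protein and the released DNA is sequenced. PU.1, H3K27ac and H3K4me1 were mapped in sorted microglia of WT and IRF8KO mice aged 3 months, with 2 libraries per target and genotype. IRF8 was mapped with an antibody to GFP in the strain IRF8-EGFP, whose IRF8 is fused to EGFP. These libraries came from microglia at postnatal days 9 (P9; 4 libraries, of 7 per the labels) and 14 (P14; 3 libraries), from adult microglia (3 libraries, also at 3 months) and from macrophages of the peritoneum (3 libraries). The latter are macrophages by their titles, while their source label names microglia; the titles were followed here, and every macrophage value rests on that. All mice are labelled female. The sources used here state neither how the knockout was made nor whether each library came from its own animal. The WT and KO groups therefore differed in IRF8, while the IRF8 libraries came from another strain.

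The PU.1 libraries held 8.95 and 17.3 M fragments (M, mega) in WT and 13.6 and 13.3 M in KO, so PU.1 depth did not separate the genotypes. For H3K27ac, both KO libraries (14.7 and 8.57 M) were shallower than both WT libraries (20.2 and 15.4 M), and for H3K4me1 both KO libraries (15.8 and 23.9 M) were deeper than both WT libraries (14.5 and 14.1 M), so depth and genotype cannot be told apart for either mark. Replicates differed: the WT PU.1 libraries shared 29.6% of their merged regions, the KO PU.1 libraries 25.4% and the KO H3K27ac libraries 9.73%. Replicate 1 of PU.1 was called at a q-value of 0.01 and replicate 2 at 0.05 against another control, in both genotypes alike. H3K27ac peaks lay within 1 kb of a start at 6 and 7 of 7 microglia and macrophage markers in the WT libraries and at 4 and 2 of 7 in the KO libraries, with 0 of 4 neuron markers in any H3K27ac library. Markers of astrocytes and oligodendrocytes had H3K27ac peaks at 0 to 1 and 0 to 2 of 4 genes, and those of T and B cells and of neutrophils at 0 to 1 of 4 and of 3 genes. H3K4me1 had peaks at 6 of 7 microglia markers in both WT libraries, at 3 and 1 of 4 neuron markers, 3 and 2 of 4 astrocyte markers and 3 and 2 of 4 oligodendrocyte markers. In the KO H3K4me1 libraries these counts were 6 and 7 of 7, 2 and 2, 2 and 4, and 1 and 3. H3K4me1 peaks at T and B cell markers were at 0 and 1 of 4 genes in WT and 2 and 3 in KO, and at neutrophil markers at 0 and 1 of 3 in WT and 2 and 2 in KO, so both counts were higher in both KO libraries. PU.1 peaks lay at 5 and 4 of 7 microglia and macrophage markers in WT and at 3 and 1 in KO. The part of cell composition in the results was not tested. With 2 against 2 libraries an exact test cannot give a p under 0.333, so the genotype results are given as values, and intervals given for shares are 95% Wilson intervals, or Newcombe intervals for differences, which cover counting over regions only.

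The sequences below reach 100 bases to each side of the centre of a region, on the + strand of mm10, read from the GRCm38.p6 reference. They show what the composite element looks like in strong lost regions, which differed most between lost and kept regions among the 7 motifs searched about the centre. Capitals mark the ETS-IRF composite element in its simplest form, which is GGAA, then 2 bases of any kind, then GAAA, or its reverse complement. The following 4 are the strongest lost regions that hold it, by the mean percentile of their WT PU.1 peaks, and they are named by the protein-coding gene with the nearest start within 100 kb. The region on chromosome 1 had no such gene. A gene's name thus gives only the nearest start, and intron or exon refers to any annotated transcript at the region, which need not be one of that gene.

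Commd8, intergenic, chr5:72184272-72184472: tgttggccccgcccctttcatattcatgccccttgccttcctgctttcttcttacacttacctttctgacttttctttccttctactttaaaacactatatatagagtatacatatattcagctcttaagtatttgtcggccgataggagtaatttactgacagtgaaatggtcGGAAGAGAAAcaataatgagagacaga
Tyk2, intron, chr9:21125570-21125770: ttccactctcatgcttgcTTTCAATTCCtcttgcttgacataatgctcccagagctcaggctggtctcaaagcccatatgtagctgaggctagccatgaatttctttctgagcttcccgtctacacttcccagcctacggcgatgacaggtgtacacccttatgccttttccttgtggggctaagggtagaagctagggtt
no gene, chr1:70856143-70856343: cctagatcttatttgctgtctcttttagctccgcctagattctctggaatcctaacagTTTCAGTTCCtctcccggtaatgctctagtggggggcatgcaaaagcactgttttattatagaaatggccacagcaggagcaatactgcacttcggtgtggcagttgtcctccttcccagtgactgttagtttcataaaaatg
Plxna1, intron, chr6:89280624-89280824: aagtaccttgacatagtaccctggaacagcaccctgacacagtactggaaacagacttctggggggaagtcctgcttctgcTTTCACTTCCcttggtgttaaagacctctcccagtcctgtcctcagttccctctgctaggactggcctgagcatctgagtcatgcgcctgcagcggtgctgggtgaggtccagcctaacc

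At the Commd8 region, WT PU.1 enrichment over control was 23.2-fold and 14.6-fold in replicates 1 and 2, and IRF8 was called in all 4 P9, all 3 P14, all 3 adult and all 3 macrophage libraries. At the region assigned to Tyk2, which encodes a Janus kinase that relays type I interferon signals, WT PU.1 enrichment was 16.5-fold and 12.4-fold, and IRF8 was again called in all 13 libraries. H3K27ac was called at the Commd8 and Tyk2 regions in 2 WT libraries and 1 KO library, and at the chromosome 1 and Plxna1 regions in 2 WT libraries and 0 KO libraries. The next 3 windows are a lost region assigned to P2ry12, a kept one assigned to Ctss and a lost one assigned to Trappc9, shown because they hold the element in a region assigned to a microglia gene, hold it in a region with PU.1 peaks in both KO libraries, and lack it in a very strong lost region. P2ry12 and Ctss were chosen for display after their values were seen.

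P2ry12, lost, intron, chr3:59225427-59225627: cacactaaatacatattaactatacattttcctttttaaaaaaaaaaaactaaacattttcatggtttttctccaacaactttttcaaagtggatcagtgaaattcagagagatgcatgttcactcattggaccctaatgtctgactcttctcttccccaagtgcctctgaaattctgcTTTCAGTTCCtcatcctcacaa
Ctss, kept, intergenic, chr3:95521274-95521474: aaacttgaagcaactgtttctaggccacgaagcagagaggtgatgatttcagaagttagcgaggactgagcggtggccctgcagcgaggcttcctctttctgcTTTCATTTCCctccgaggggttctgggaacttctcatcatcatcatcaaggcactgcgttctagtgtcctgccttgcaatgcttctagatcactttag
Trappc9, lost, intron, chr15:73034876-73035076: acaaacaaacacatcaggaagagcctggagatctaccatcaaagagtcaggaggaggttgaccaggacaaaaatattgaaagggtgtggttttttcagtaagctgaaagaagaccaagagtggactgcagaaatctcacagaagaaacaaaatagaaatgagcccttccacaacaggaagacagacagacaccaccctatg

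The composite element was present within 100 bp of the centre in 142 of 1088 lost regions (13.1%, 11.2 to 15.2%) and in 257 of 3594 kept regions (7.15%, 6.35 to 8.04%). The difference was 5.90 percentage points (3.83 to 8.18), and 2.60 points without WT PU.1 replicate 2. Windows of the same length 1 kb away held it in 1.56% and 1.86%, and the windows of all 5358 WT PU.1 regions in 7.84%. Lost regions were weaker than kept regions in the WT lists, so the kept share was also weighted to the strength of the lost regions over 10 classes of WT PU.1 strength. The difference was then 6.73 points. Conversely, 35.6% of the 399 regions with the element were lost (31.0 to 40.4%), and among regions beyond 1 kb from a transcription start 39.1% of those with it and 24.98% of those without it were lost. The difference depended on where the window lay: about the strongest WT PU.1 summit the shares were 5.24% and 4.17%, a difference of 1.07 points whose interval, -0.303 to 2.67, includes 0, whereas within 250 bp of the centre the difference was 10.6 points.

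Other motifs searched on both strands in the same window differed less. The interferon response element, a pair of GAAA half-sites with 2 bases of any kind between them, was found in 3.86% of lost and 3.42% of kept regions. The ETS core GGAAGT, to which PU.1 can bind, was found in 38.1% and 40.7%, and over all WT PU.1 regions in 40.2%. AP-1 (TGANTCA) was at 5.24% and 6.07%, C/EBP (TTGCNNAA) at 9.74% and 9.91%, and RUNX (TGTGGT) at 14.2% and 15.5%. The intervals of these 5 differences include 0. The GC box GGGCGG, common in promoters, was less frequent in lost regions, at 6.43% against 9.71%, a difference of -3.28 points (-4.93 to -1.41). These are matches of letters, which do not show that a factor was bound.

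**Figure D1:**
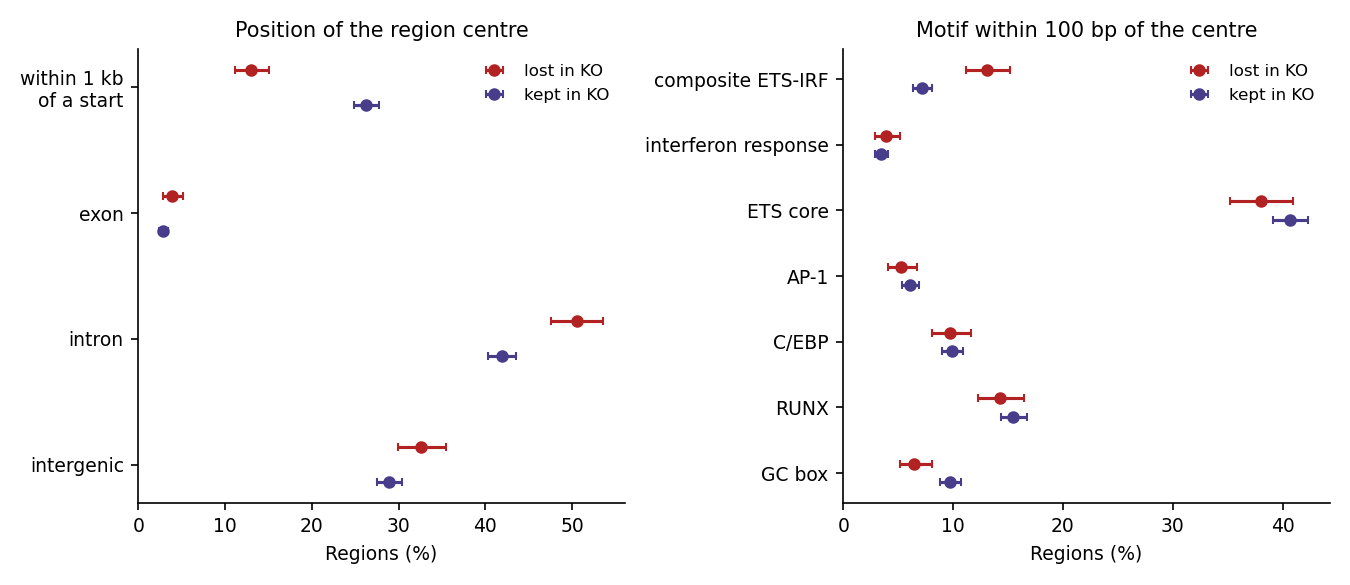
Share of lost (red, 1088) and kept (dark blue, 3594) IRF8-bound PU.1 regions by position of the centre (left; exon, intron and intergenic are beyond 1 kb of a start) and by motif within 100 bp of the centre (right), in percent with 95% Wilson intervals. Lost regions lie lower for starts (13.0% against 26.3%) and higher for the composite element (13.1% against 7.15%).

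By position, lost regions lay farther from transcription starts. The centre was within 1 kb of a transcription start in 141 lost regions (13.0%) and in 944 kept regions (26.3%), a difference of -13.3 points (-15.7 to -10.8), of -14.9 points at matched strength and of -8.20 points without WT PU.1 replicate 2. In place of starts, lost regions lay in introns (50.6% against 41.9%) and between genes (32.6% against 28.9%), while the share in exons was 3.86% and 2.87%. Over 10 kb from any start lay 50.6% of lost and 38.3% of kept regions, and over 50 kb 10.2% and 6.09%. The median distance to a start was 10351 bp for lost and 5967.5 bp for kept regions. The median GC content of these windows was 46.8% and 48.8%.

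The values that the choice of regions rests on are given next as a description. Lost regions were narrower, with a median of 619.5 bp against 732 bp, and weaker in WT, with a median percentile of 59.3 against 74.4. The median WT PU.1 enrichment was 6.56-fold against 8.50-fold in replicate 1 and 4.83-fold against 5.86-fold in replicate 2. The share of IRF8-bound regions that were lost went from 44.8% in the weakest of 10 strength classes to 6.17% in the strongest. By contrast, adult IRF8 enrichment was alike in lost and kept regions, at 9.34-fold and 9.49-fold in replicate 1, 9.78-fold and 9.45-fold in replicate 2, and 7.04-fold in both in replicate 3. Of the lost regions, 805 (74.0%) overlapped an IRF8 region called in all 3 adult libraries, a share close to the 76.4% of kept regions. The nearest KO PU.1 peak lay at a median of 20767 bp, within 200 bp for 12 regions and within 1000 bp for 47.

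At the edge of the rule, the kept regions with the weakest KO peak were assigned to Ccdc192, Rhog and Nfam1, with a KO −log10 q of 1.31, 1.35 and 1.36 in a single KO library. The lost regions nearest to a KO peak were those of Tbk1 and Batf, 2 bp away, and Mbnl1, 7 bp away. The weakest WT peaks among lost regions were those of E4f1, with a −log10 q of 1.33 in the weaker library, and of Atg16l1 and Cabin1, with 1.40. Of the kept regions, 2552 had a peak in both KO libraries and 1042 in only 1.

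IRF8 binding at earlier stages was called in libraries that the rule did not use. At P9, the 4 libraries had peaks at 18.1%, 16.5%, 24.1% and 15.4% of lost regions and at 19.5%, 17.1%, 27.5% and 16.2% of kept regions. At P14, the 3 libraries had peaks at 63.9%, 87.4% and 58.5% of lost and at 68.1%, 91.0% and 61.7% of kept regions. The P9 lists held 1168 to 2068 regions from 13.4 to 20.9 M fragments and the P14 lists 7931 to 19238 regions from 13.9 to 24.4 M, so the higher shares at P14 went with longer lists, for lost and kept regions alike. In each of the 7 libraries the lost share was the lower, with a mean lost minus kept difference of -2.45 ± 1.502 points (SD, n = 7), and the exact two-sided sign-flip test gave p = 0.0156, the smallest it allows, and 0.0344 after Benjamini-Hochberg adjustment over 11 tests of IRF8 shares. At matched WT PU.1 strength the direction turned: the lost share was higher in 6 of 7 libraries, by 3.87 ± 1.85 points (exact p = 0.0313, adjusted 0.0573). The plain difference is therefore not separate from the lower WT PU.1 strength of lost regions. Without adult IRF8 replicate 2, the deepest library of the IRF8 consensus, the plain difference was -1.31 points (exact p = 0.0625). It was -7.82 and -10.2 points without WT PU.1 replicate 1 or 2, and -5.49 and -3.87 points without KO PU.1 replicate 1 or 2.

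Regions that overlapped a P9 consensus region, called in at least 2 libraries, made up 19.9% of lost and 21.9% of kept regions, and those of P14 70.9% and 76.4%. No P9 or P14 library had a peak at 103 lost (9.47%) and 225 kept (6.26%) regions. Where IRF8 peaks were present, their enrichment was alike: medians were 5.88-fold for lost and 5.51-fold for kept regions in P9 replicate 1, and 6.80-fold and 6.66-fold in P14 replicate 1.

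**Figure D2:**
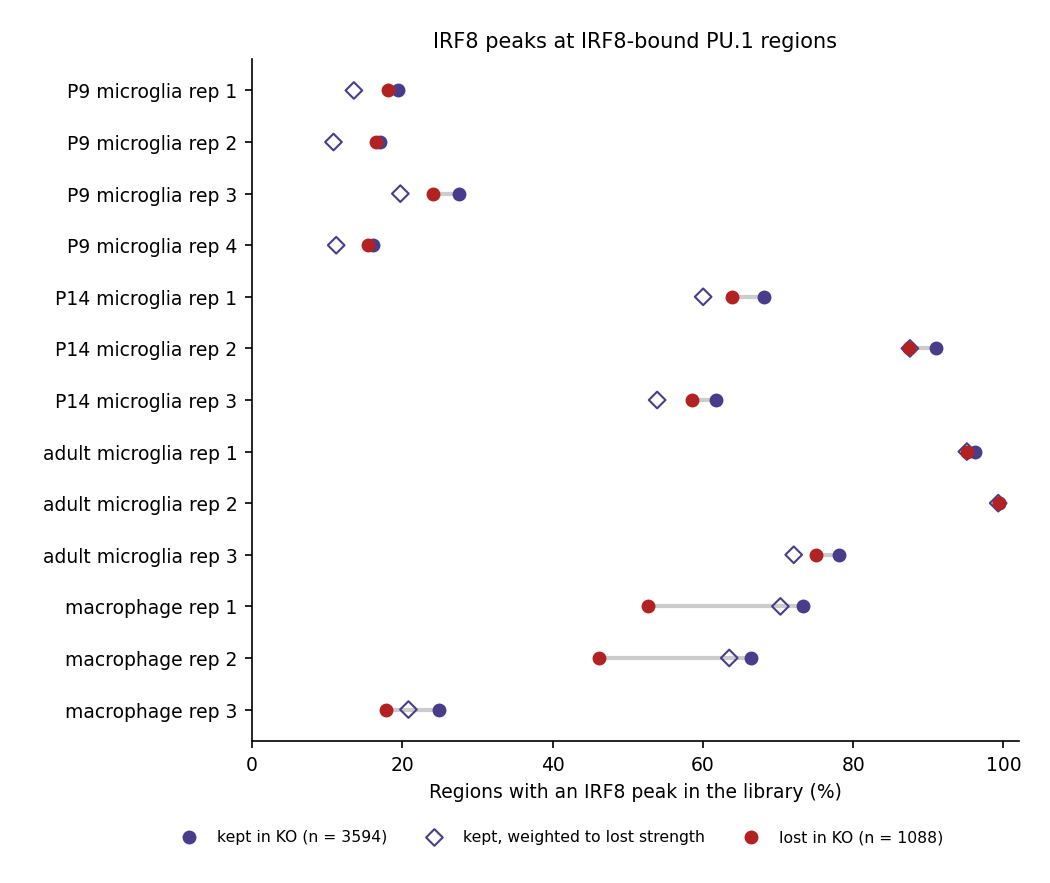
Share of lost (red) and kept (filled dark blue) IRF8-bound PU.1 regions with an IRF8 peak in each of 13 libraries, in percent; open diamonds give the kept share weighted to the WT PU.1 strength of lost regions. Red and filled points lie close in P9 and P14 libraries and apart in the macrophage libraries (52.7% against 73.3% in replicate 1); adult libraries were used to choose the regions.

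In peritoneal macrophages, IRF8 was called at 52.7%, 46.1% and 17.8% of lost regions and at 73.3%, 66.4% and 24.9% of kept regions in replicates 1, 2 and 3. The lost share was the lower in all 3 libraries. The labels place replicates 1 and 2 in batch 1 and replicate 3, which had fewer peaks, in batch 2. The ratio of the lost to the kept share was 0.718, 0.695 and 0.717. A test against the P9 and P14 libraries was chosen after these values were seen. The lost minus kept difference in macrophages, less that in the 7 P9 and P14 libraries, was -13.5 points (exact two-sided permutation p = 0.00833, the smallest that 120 arrangements allow; adjusted 0.0229). The same contrast of log2 ratios of lost to kept shares was -0.40 (exact p = 0.00833), and that of differences at matched strength was -16.5 points (exact p = 0.00833). Against the 3 P14 libraries alone the values were -12.3 points and p = 0.1 by the exact permutation test, the smallest that 3 against 3 allow. At matched strength the macrophage differences were -17.6, -17.4 and -2.99 points. Each cell source had its own IgG control, so source and control cannot be told apart.

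A macrophage consensus region, called in 2 or more libraries, overlapped 43.4% of lost and 63.3% of kept regions, and 41.6% and 20.2% had no macrophage peak at all. The difference in the former share was -19.6 points beyond 1 kb from a start (-23.2 to -16.0) and -9.91 points within it (-18.6 to -1.74). Regions with a P14 consensus peak and no macrophage peak were 24.1% of lost and 12.1% of kept regions. Of the 1179 regions with no macrophage peak, 38.4% were lost, and of the 2746 with a macrophage consensus peak, 17.2%.

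In WT microglia, lost regions carried the histone marks of kept regions to a similar extent. H3K27ac was called at 93.6% and 92.4% of lost regions in the WT libraries, against 97.1% and 94.99% of kept regions, and H3K4me1 at 98.0% and 96.9% against 97.3% and 95.9%. The median H3K27ac enrichment in WT was 7.40-fold for lost and 7.73-fold for kept regions in replicate 1 and 8.83-fold and 8.91-fold in replicate 2. In KO, H3K27ac was called at 53.9% and 22.4% of lost regions and at 80.8% and 50.3% of kept regions in replicates 1 and 2. Lost minus kept was -26.97 and -27.9 points in the 2 KO libraries, although their overall peak numbers differed, and -3.57 and -2.62 points in the WT libraries. The KO minus WT difference of these values was -24.3 points (exact two-sided permutation p = 0.333, the smallest possible). In KO, H3K4me1 was still called at 85.4% and 90.7% of lost and 96.0% and 97.1% of kept regions.

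**Figure D3:**
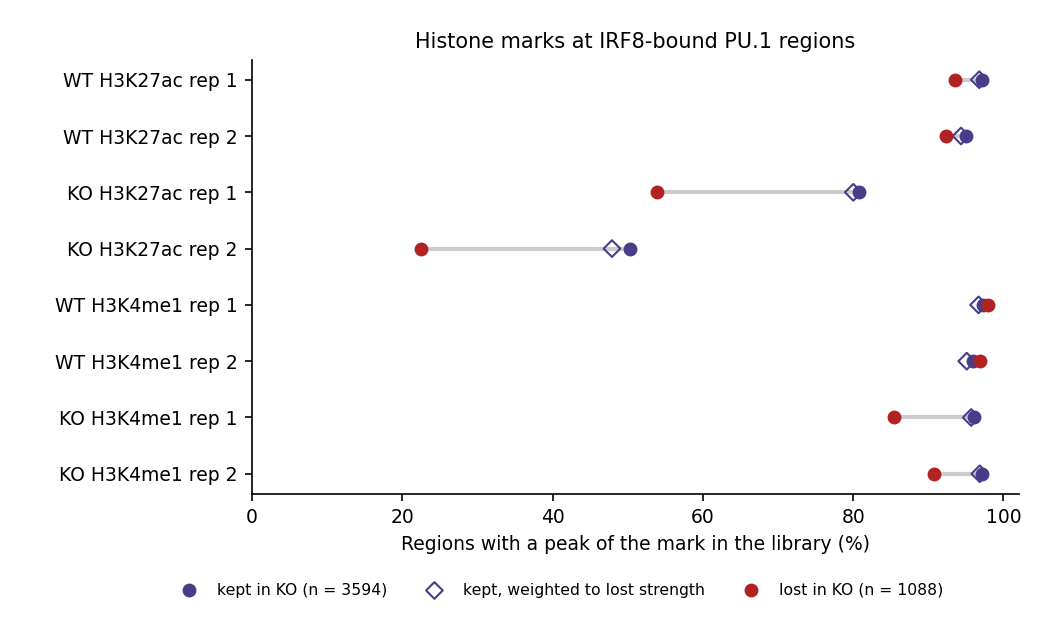
Share of lost (red) and kept (filled dark blue) IRF8-bound PU.1 regions with a peak of H3K27ac or H3K4me1 in each WT and KO library, in percent; open diamonds give the kept share weighted to the WT PU.1 strength of lost regions. The widest gaps are in KO H3K27ac, at 53.9% against 80.8% and 22.4% against 50.3%.

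Of regions that overlapped a WT H3K27ac region, which is a merged region called in both WT libraries, 379 of 986 lost regions (38.4%, 35.5 to 41.5%) had no H3K27ac peak in either KO library, against 420 of 3384 kept regions (12.4%, 11.3 to 13.6%). The background of such absence was 19.3% over all WT PU.1 regions with the mark and 34.0% over all WT H3K27ac regions. For the latter share a KO peak anywhere in the merged H3K27ac region counted, and for the others a KO peak at the PU.1 region. The difference between lost and kept regions was 26.0 points (22.8 to 29.3), and 25.5 at matched strength. Where peaks of both WT libraries overlapped the PU.1 region itself, the shares were 372 of 972 lost (38.3%) and 409 of 3358 kept regions (12.2%). The difference was 29.2 points beyond 1 kb from a start (40.4% against 11.2%) and 8.93 points within it (25% against 16.1%). Judged by KO replicate 1 alone, absence was 42.4% against 16.4%, and by the shallow KO replicate 2 alone 76.7% against 47.8%. The nearest KO H3K27ac peak lay at a median of 3502 bp from the 379 lost regions and 1837.5 bp from the 420 kept regions.

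The share without KO H3K27ac was lower the more KO libraries held a PU.1 peak, going from 38.4% with 0, through 18.2% with 1, to 10.1% with 2. The composite element went from 13.1% through 7.97% to 6.82%, the promoter share from 13.0% through 22.2% to 27.9%, and the macrophage IRF8 consensus from 43.4% through 52.1% to 67.8%. The ETS core was at 38.1%, 40.2% and 40.9%. The stage and H3K4me1 shares had no such order: the P9 consensus was at 19.9%, 15.1% and 24.6%, the P14 consensus at 70.9%, 69.6% and 79.2%, and absence of H3K4me1 from KO at 5.42%, 0.599% and 0.608%. Median WT PU.1 strength also moved, from 59.3 through 63.8 to 79.0. In each of 10 classes of WT PU.1 strength the share without KO H3K27ac was higher in lost than in kept regions. It was 32.97% against 13.9% in the weakest class and 46.4% against 10.3% in the strongest.

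**Figure D4:**
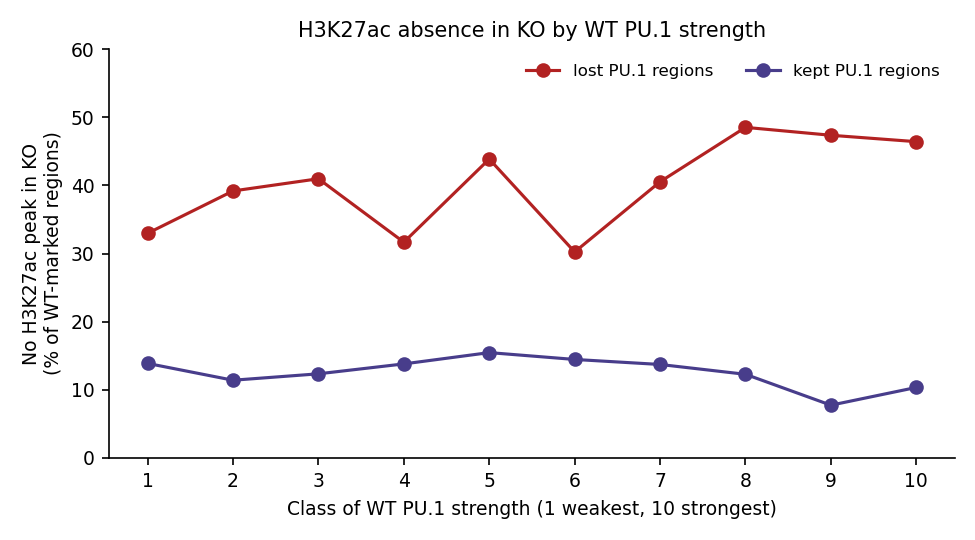
Share of WT-marked regions with no H3K27ac peak in either KO library (vertical axis, percent) for lost (red) and kept (dark blue) IRF8-bound PU.1 regions in 10 classes of WT PU.1 strength (horizontal axis, 1 weakest). The lost values lie above the kept values in all 10 classes, from 32.97% against 13.9% to 46.4% against 10.3%.

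The relation to H3K27ac was also seen at PU.1 regions without IRF8. Of these 676 regions 259 were lost (38.3%), against 23.2% of the IRF8-bound ones. There, 82 lost regions (40.8% of those with H3K27ac in WT) and 63 kept regions (20.2%) had no KO H3K27ac. The composite element did not separate them to the same degree, at 3.47% of 259 lost and 2.88% of 417 kept regions without IRF8. Lost regions without IRF8 were likewise lower than kept ones in the share within 1 kb of a start (8.11% against 17.3%) and in the macrophage IRF8 consensus (11.2% against 18.9%), and H3K4me1 was absent from KO at 4.76% of lost and 0.773% of kept regions with the mark. The difference between IRF8-bound and other regions was not tested. Within the IRF8-bound regions, the H3K27ac difference was 27.2 points with the composite element and 25.7 points without it, and 22.9 points with a macrophage IRF8 consensus and 28.4 points with no macrophage peak.

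H3K4me1 was still called at most lost regions, in KO libraries that were deeper than the WT ones. It was absent from both KO libraries at 57 of 1051 lost regions with the mark (5.42%, 4.21 to 6.96%) and at 21 of 3468 kept regions (0.606%, 0.396 to 0.924%), against a background of 1.79% over WT PU.1 regions with the mark and 13.0% over all WT H3K4me1 regions. For the last share a KO peak anywhere in the merged H3K4me1 region counted. The difference between lost and kept regions was 4.82 points, 10.7 without KO H3K4me1 replicate 2, 2.97 without KO PU.1 replicate 1 and 2.45 where absence from the KO PU.1 consensus counted as lost. Among regions with both marks in WT, 33.7% of lost and 11.8% of kept regions had no KO H3K27ac while H3K4me1 was still called (the KO libraries were shallower than WT for the former mark and deeper for the latter), and 4.61% and 0.121% had neither mark. Of the regions that had no KO H3K27ac, 329 of 374 lost (88.0%) and 392 of 396 kept (99.0%) still had H3K4me1.

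The strongest lost regions were assigned to 12 genes. Trappc9, a subunit of a vesicle-tethering complex, was assigned an intronic region (chr15:73034644-73035309) with WT PU.1 at 24.7-fold and 19.3-fold, H3K27ac in 2 WT and 0 KO libraries, and H3K4me1 in 2 WT and 0 KO libraries. Gng10, a G protein gamma subunit, was assigned an intronic region (chr4:59040469-59041165) with WT PU.1 at 18.7-fold and 14.5-fold, H3K27ac in 2 WT and 0 KO libraries and no macrophage IRF8. Bcl2l11, which encodes the pro-apoptotic protein BIM, was assigned an intronic region 58657 bp from its start (chr2:128067170-128067592), where WT PU.1 was 13.4-fold and 15.9-fold and H3K27ac was called in both libraries of both genotypes. The region assigned to Pla2g4a, a cytosolic phospholipase, lay 81208 bp from its start and within 1 kb of another transcript's start (chr1:149841067-149841395). It held the interferon response letters and had 18.2-fold and 10.8-fold WT PU.1, with H3K27ac in 2 WT libraries and 1 KO library. Mpeg1, a pore-forming protein of macrophages, had 13.4-fold and 12.8-fold (chr19:12457342-12458669), with IRF8 in all 13 libraries and H3K27ac again in 1 KO library. Commd8, Tyk2, Rab3ip, BC067074, Plscr2 and Gm21060 likewise had H3K27ac in both WT libraries and in 1 KO library. The highest-ranked entry, at Gm10801, had an enrichment of only 1.39-fold and 1.57-fold on a pileup of 15157 and 20704 scaled fragments, and no H3K27ac or H3K4me1 in any library.

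Of the lost regions, 929 had a protein-coding start within 100 kb and were assigned to 832 of the 2945 genes with an IRF8-bound region (28.3%), and 545 of the 832 had no kept region. As 4168 IRF8-bound regions were assigned to the 2945 genes, many genes had only 1, so a gene with a lost region often had no other to keep. A total of 80 genes had 2 or more lost regions, 34 of them with none kept, and 13 had 3 or more. These gene counts have no background share and are descriptions. Tiam1, an activator of the GTPase Rac, lost 4 of 5 regions, all 4 intronic, and 2 of these 4 had no KO H3K27ac. Ccr6, a chemokine receptor, lost 4 of 5, and 2 of these likewise had no KO H3K27ac. No macrophage library had IRF8 at any of the 4 Ccr6 regions, while at least 1 P14 library had it at each. Ank1 lost 3 of 3 regions, Commd8 3 of 4, Scamp2 3 of 4, Sh3pxd2a 3 of 5, Cd86 3 of 5, Frmd4a 3 of 6 and Ubash3b 3 of 8. Gm47283 on chromosome Y lost 5 of 5. Its 5 regions lay together near the end of that chromosome, at 90774064 to 90809548 of 91744698 bp. Of the 10 IRF8-bound regions on chromosome Y, 8 were lost, in mice labelled female, and without that chromosome 1080 lost regions remain. The source of the calls on chromosome Y was not tested.

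Genes were then taken from 9 lists, whose members partly overlap. The share of IRF8-bound regions lost was 30.2% for homeostatic microglia genes (13 of 43), 17.3% for lineage and partner transcription factors (9 of 52), 50% for type I interferon-stimulated genes (2 of 4) and 38.5% for antigen presentation genes (5 of 13). It was 5.56% for disease-associated microglia genes (1 of 18), 14.8% for innate sensors (4 of 27), 7.69% for complement and Fc receptors (1 of 13), 12.8% for lysosome genes (5 of 39) and 19.1% for cytokines, chemokines and their receptors (9 of 47). The interval of each share includes the 23.2% found over all IRF8-bound regions, the widest being 15.0 to 85.0% for the interferon-stimulated genes.

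**Figure D5:**
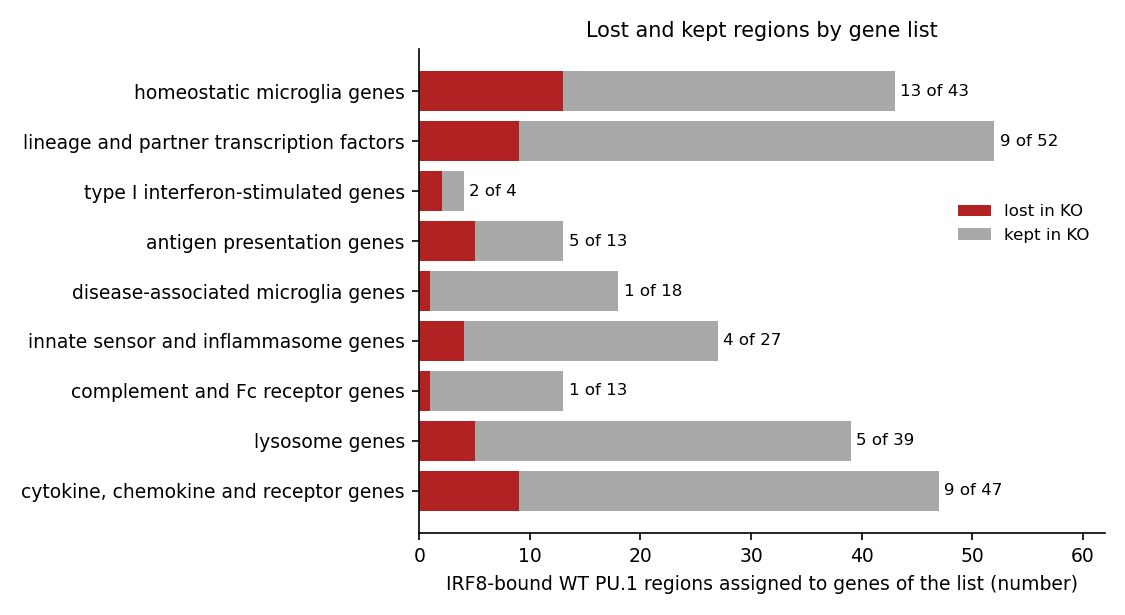
Number of IRF8-bound WT PU.1 regions assigned to the genes of 9 lists, split into lost (red) and kept (grey). Homeostatic microglia genes hold the most lost regions (13 of 43) and disease-associated microglia genes and complement and Fc receptor genes 1 each.

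Among homeostatic microglia genes, 10 of 20 with an IRF8-bound region had a lost region, against 832 of 2945 (28.3%) over all genes with such a region. These gene shares are not alike: the 20 genes held 43 IRF8-bound regions and the 2945 genes 4168, so the listed genes had more regions each. Per region, 30.2% were lost (18.6 to 45.1%), against 23.2% over all IRF8-bound regions. P2ry12, a purinergic receptor of microglia, lost 1 of 5, the intronic region whose sequence is printed above (chr3:59225228-59225827). WT PU.1 was 10.6-fold and 9.14-fold there, adult IRF8 15.0-fold, 18.3-fold and 6.45-fold, and H3K27ac was called in 2 WT and 0 KO libraries while H3K4me1 was called in both libraries of both genotypes. Slc2a5, a fructose transporter, lost its only region (chr4:150120324-150120766), with WT PU.1 at 8.07-fold and 5.41-fold and H3K27ac in 2 WT and 0 KO libraries. The TGF-beta receptor genes Tgfbr1 and Tgfbr2 lost 2 of 2 and 2 of 4 regions, and all 4 lost regions kept H3K27ac in at least 1 KO library. Cst3, the cysteine protease inhibitor cystatin C, lost 2 of 3, also with H3K27ac in KO. Cx3cr1, the fractalkine receptor, lost 1 of 2, a region at a start with 6.05-fold and 3.45-fold WT PU.1 and H3K27ac in 2 WT and 0 KO libraries. Outside the naming rule and chosen after its values were seen, Sall1, a transcription factor of microglial identity, lost its only IRF8-bound region, which also had no KO H3K27ac. Siglech and Olfml3, likewise outside the rule, also lost their only region, and these kept H3K27ac in at least 1 KO library. Over the list, 4 of 13 lost regions with WT H3K27ac had none in KO, against 38.4% over all lost regions with the mark.

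Of 22 transcription factor genes with an IRF8-bound region, 6 had a lost region, against the same 28.3% over all genes. The 22 genes held 52 such regions, again more per gene than over all genes. Per region, 17.3% were lost, against 23.2% over all IRF8-bound regions. Batf3, an AP-1 family factor of myeloid cells, lost 2 of 3, both between genes (chr1:191114812-191116046 and chr1:191109854-191110709). At these regions adult IRF8 reached 26.5-fold, 26.2-fold and 19.9-fold, and 11.4-fold, 11.0-fold and 8.79-fold, and H3K27ac was called in 2 WT and 0 KO libraries at each. Rel, an NF-kappaB subunit, lost 2 of 2, with H3K27ac in 1 KO library at each. Fli1, an ETS factor, lost 2 of 5 and Klf6, a zinc-finger factor, 1 of 2, the latter with H3K27ac in 0 KO libraries. The lost Batf region is the one 2 bp from a KO peak, and the strongest kept Batf region had 33.3-fold and 14.5-fold WT and 32.2-fold and 22.8-fold KO PU.1. Spi1, which encodes PU.1, had 1 IRF8-bound region, which was kept. Over the list, 5 of 8 lost and 5 of 41 kept regions with WT H3K27ac had none in KO, against 38.4% of lost and 12.4% of kept regions over all IRF8-bound regions. For lost regions of the other lists these counts were 4 of 13 for homeostatic genes, 0 of 1 for interferon-stimulated genes and 0 of 4 for antigen presentation. They were 1 of 1 for disease-associated genes, 1 of 4 for innate sensors and 0 of 1 for complement and Fc receptors. Lysosome genes had 2 of 5, and cytokines, chemokines and their receptors 2 of 8.

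Among immune genes, Irgm1, an interferon-inducible GTPase, lost its only region, with WT PU.1 at 8.33-fold and 7.26-fold and H3K27ac in both KO libraries. Dhx58, an RNA helicase of the RIG-I family, lost its only region at 6.30-fold and 8.97-fold. Gbp3, another interferon-induced GTPase, kept its region, with a KO PU.1 peak of 3.73-fold in replicate 2 only. Cd86, a costimulatory molecule, lost 3 of 5, H2-Ab1, an MHC class II chain, 1 of 1, and B2m, the light chain of MHC class I, 1 of 1 at its start, where H3K27ac was called in both KO libraries. Ctss, a cathepsin, kept 3 of 3. Of the sensors, Naip2 lost its only region, at a start (chr13:100201903-100202201), with 8.17-fold and 13.8-fold WT PU.1 and H3K27ac in 2 WT and 0 KO libraries. Tlr4, the lipopolysaccharide receptor, lost 1 of 2 and Casp8 1 of 3, both with H3K27ac in both KO libraries, and Il18 lost 1 of 2. Tlr3 kept its region at 24.2-fold and 13.8-fold WT and 15.7-fold and 8.80-fold KO PU.1.

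Of the remaining lists, Ccl6, a chemokine, held the only lost region among disease-associated genes, with 6.33-fold and 9.31-fold WT PU.1 and H3K27ac in 2 WT and 0 KO libraries. Cd68 kept its region, and Itgb2, the beta chain of complement receptor integrins, lost 1 of 2 while C1qb kept 1 of 1. Of lysosome genes, the cathepsin genes Ctsh and Ctsc lost 2 of 2 and 1 of 4, and Mitf, a transcription factor, 1 of 3. Of cytokine receptors and their kinases, Ifngr2, a chain of the interferon-gamma receptor, lost 1 of 3, with H3K27ac in 2 WT and 0 KO libraries, and Jak1 lost a region with H3K27ac in 1 KO library. The strongest kept region of that list, at Il6ra, had 29.3-fold and 16.2-fold WT and 9.15-fold and 14.9-fold KO PU.1.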

How the data were processed

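CUT&RUN peak lists of 25 libraries were used. Per the file headers, the authors made 1 peak list per library with MACS against an IgG control, using version 2.2.7.1 for the transcription factors and 2.2.6 for the histone marks. The q-value threshold was 0.01 (0.05 for PU.1 replicate 2), and for H3K4me1, called in broad mode with a minimum length of 1000 bp, a p-value of 0.01. Per the file headers, stretches of IRF8, PU.1 and H3K27ac were joined over gaps up to 640 bp. Bowtie2 and the build mm10 are named in the submitters' processing notes. The deposited columns used are the pileup (a coverage signal), the −log10 of p-value and of q-value, and the fold over control (a ratio), all per the file headers; they are the authors' values and served only to describe or rank peaks within a list.

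Entries of a list were merged to regions, chromosome M was left out (1 WT PU.1 region per library), and 1 shared bp counted as overlap. A region carries a mark in WT where it overlaps a merged region called in both WT libraries of that mark; the peaks of both need not reach the PU.1 region itself. Strength is the mean percentile of −log10 p within the 2 WT PU.1 lists, and weighting used 10 strata of it, tested on simulated data. Starts, exons and introns came from GENCODE vM21. Sequence windows reach 100 bp to each side of a region's centre. Tests are exact permutation tests over libraries. The analysis used numpy 2.4.6, pandas 2.3.3 and scipy 1.17.1. The regions, gene lists and rules were chosen with earlier results of these data known. Genes are named for the 12 strongest lost regions, for 3 or more lost regions (at most 10 genes), for lost regions of listed genes (at most 5 per list) and for the strongest kept region of each list. The sequence rule also gave a window at Gm10801, which overlaps an exon and is not printed. The rule for names also selected 1 gene that is not reported here. Alternatives tried were a −log10 p of at least 10, absence from the KO consensus, other overlap rules, promoter and motif windows, weighting by strength or width, the PU.1 lists of 1 number alone, pairing of the histone mark libraries by number, and leaving out each library. P-values measure the spread between libraries, which may be technical.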

Additional observations from a re-analysis of the deposited data

Results flagged for a closer look

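Between cell sources, the lost minus kept difference in the share of regions with an IRF8 peak differed by -13.5 points (macrophages minus P9 and P14 microglia). It was flagged because the effect differed between groups by an exact permutation test of the difference itself (p = 0.00833, adjusted 0.0229), a test chosen after the values were seen. All 3 macrophage libraries lay below all 7 microglia libraries, at -20.7, -20.2 and -7.04 points against -4.21 to -0.604 points. Macrophage and microglia libraries were called against different IgG controls, which cannot be told apart from the cell source. The macrophage libraries are named so by their titles, while their source label names microglia.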

How the results depend on the processing

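The number of lost regions was 271 when WT PU.1 and IRF8 peaks needed a −log10 p of at least 10, 2136 when absence from the KO consensus was enough, and 780 to 3006 when each library was left out in turn (3006 without WT PU.1 replicate 2, 1956 without WT PU.1 replicate 1 and 1646 without KO PU.1 replicate 1). Stricter peaks, a left-out WT PU.1 or adult IRF8 library and the use of 1 WT PU.1 list also changed the set of IRF8-bound regions. Such counts are therefore not out of the same 4682 regions. The difference between lost and kept regions in P9 and P14 IRF8 reversed with −log10 p of at least 10 (2.71 points, exact p = 0.0938) and at matched WT PU.1 strength (3.87 points), and ranged from -10.2 to -1.31 points with each library left out, losing its call without adult IRF8 replicate 2 (exact p = 0.0625). Its other 20 alternatives, added ones included, kept the direction and an unadjusted p under 0.05; with a P9 or P14 library left out this p was 0.0313, the smallest that 6 libraries allow. The H3K27ac difference was 34.2 points with −log10 p of at least 10, 18.02 with the KO consensus, 29.2 beyond 1 kb from a start (added after seeing the data) and 20.002 to 28.8 without each library. The H3K4me1 difference was 7.44 points with −log10 p of at least 10, 2.45 with the KO consensus and 2.97 to 10.7 without each library. With peaks of both WT libraries at the region itself (added after seeing the data) the H3K27ac and H3K4me1 differences were 26.1 and 5.04 points. The promoter difference was -10.5 points with the KO consensus and -13.6 to -8.20 without each library. The composite element difference was 8.85 points with −log10 p of at least 10, 1.07 at the summit, 10.6 within 250 bp of the centre and 2.60 to 7.60 without each library. These 4 differences kept their sign in all alternatives tried. The causes of these changes were not tested. With the number as a replicate block, the KO minus WT difference of lost minus kept shares (added after seeing the data) was again -24.3 points for H3K27ac (-23.4 and -25.2 within numbers 1 and 2) and -9.35 for H3K4me1 (-11.3 and -7.35), with an exact sign-flip p of 0.5, the smallest that 2 pairs allow, against an exact permutation p of 0.333 without the block. With only the PU.1 lists of the same number in WT and KO (added after seeing the data), number 1 gave 3820 lost regions and differences of 21.9 points for H3K27ac, -6.81 for promoters and 2.24 for the composite element, and number 2 gave 2694 lost regions and 20.3, -6.28 and 3.67 points. KO H3K27ac replicate 2 was the shallowest H3K27ac library, with 8.57 M fragments.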
